A study of Mus musculus with 4 samples.

Results

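The monocytes described here are 276 of the 21090 barcodes kept from 2 libraries of mouse lung tumours, the library named CRPR2 and the library named RPR2. They were picked by their own RNA. A barcode with at least 300 genes and at most 15% mitochondrial UMIs (unique molecular identifiers, each standing for 1 captured RNA molecule) was taken as a monocyte when it held at least 1 UMI of Ms4a6c, at least 3 of Lyz2 and at least 1 of Tyrobp, none of C1qa, C1qb, C1qc, Cd3e or Cd79a, and no more than 5 of S100a8. Ms4a6c (chr19:11469366-11482192, plus strand, build mm10) encodes a membrane protein abundant in monocytes, Lyz2 a lysozyme of phagocytes and Tyrobp a signalling adaptor of myeloid receptors. The genes barred by the gate mark macrophages (C1q), T cells (Cd3e), B cells (Cd79a) and neutrophils (S100a8). Single monocytes held between 568 and 17280 UMIs in CRPR2 and between 513 and 32030 in RPR2. The gate took 150 of 11962 kept barcodes of CRPR2 and 126 of 9128 of RPR2. No monocyte barcode was shared between the libraries.

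The study profiled mouse small cell lung cancer by droplet single-cell RNA sequencing. CRPR2 and RPR2 are whole lung tumours that were minced, digested and freed of red and dead cells before 3' capture. The series also holds 2 allografts of the preSC tumour cell line, with and without Cracd, which are not used here and bring the series to 56220 barcodes. The labels give no fuller genotype than the names. In this field RPR2 stands for tumours that start from deletion of Rb1, Trp53 and Rbl2, which both groups would share, and the added C for deletion of Cracd, a gene for a regulator of actin capping. No source used here gives the strain, sex, age or number of animals or the way the deletions were started, nor is it said whether tumour and surrounding lung were separated. Whether the monocytes themselves carry any of these deletions is not stated either.

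Monocytes are made in the bone marrow and circulate in 2 main forms in mice. Classical monocytes carry much Ly6C, leave the marrow through the chemokine receptor CCR2, enter inflamed tissue and tumours, and can become macrophages there. Nonclassical monocytes carry little Ly6C, depend on the transcription factor NR4A1, and patrol the wall of small vessels held by the integrin LFA-1, and the lung holds many of them. Angiotensin-converting enzyme (Ace) and the receptor Treml4 are markers of the nonclassical form.

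There is 1 library per tumour model, so no comparison below has a replicate check, and no p-value is given. Levels are UMIs summed over the cells of a group and scaled to counts per 1000000 UMIs of that group (CPM), and a ratio divides 2 such levels. The range in parentheses after a ratio or share is its exact 95% interval, which covers counting error only and not differences between animals. A gene was called higher or lower at a ratio of 2 or more either way, provided that the higher group held at least 50 CPM and 10 UMIs, and genes that met this floor are the measured genes. Some genes met it only through the group where they were high and so had to differ. Counts over measured genes are therefore descriptions, and the main ones are also given over genes that met the floor in each of the 2 groups, a limit chosen after seeing the data. Where a group held no UMI, the ratio was bounded by putting 3 UMIs in its place.

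The 2 libraries differ in ways that touch every cell type in them. CRPR2 held 12164 deposited barcodes and 61917754 UMIs in all, and RPR2 9215 barcodes and 42592323 UMIs. Xist, which coats the inactive X chromosome, gave 0 UMIs in CRPR2 monocytes and 552 in RPR2 monocytes, whereas the Y-linked Eif2s3y gave 53 in CRPR2 monocytes and 0 in RPR2 monocytes. The ferritin pseudogene Ftl1-ps1 was at 29.8 CPM in CRPR2 and 1477 CPM in RPR2 among the Ccr2/Ly6c2 monocytes defined below, and in T cells at 8.61 CPM in CRPR2 and 663 CPM in RPR2. The interferon-inducible Ifi202b, known to vary between mouse strains, was at 0 UMIs in CRPR2 monocytes and 89 in RPR2 monocytes. The tumour model thus cannot be told apart from the sex-linked and other library-wide differences. RNA of tumour, club (airway secretory) and T cells was present in some monocyte barcodes of both libraries, so results that could rest on it are also given over the 121 CRPR2 and 111 RPR2 monocytes in which the 21 marker genes of these cells made up under 0.2% of UMIs. That limit was chosen after seeing the data.

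The gate's cells carried monocyte RNA beyond the genes that picked them. Plbd1, a phospholipase of myeloid granules, was at 396 CPM in CRPR2 monocytes and 146 CPM in CRPR2 macrophages, and at 360.5 CPM in RPR2 monocytes and 69.8 CPM in macrophages. Macrophages here are the 108 CRPR2 and 36 RPR2 barcodes with at least 3 C1q UMIs and the same Lyz2 and Tyrobp minimum. Ifitm6, an interferon-induced membrane protein gene active in monocytes and granulocytes, was at 406 CPM in CRPR2 monocytes and 4.35 CPM in CRPR2 macrophages, and at 504 CPM in RPR2 monocytes and 4.98 CPM in macrophages. Both genes had no UMI in the 453 T cells of CRPR2 and 1 UMI each in the 3260 of RPR2. T cells here held at least 1 Cd3e UMI and none of Lyz2, Cd79a or C1q. Barcodes with free Lyz2 RNA were thus left out, so a background of myeloid RNA read from T cells may be too low. Of the genes of the classical monocyte list, 13 of 15 measured were higher in CRPR2 monocytes than in CRPR2 macrophages, against 9.31% of all 3202 measured genes, and 15 of 15 in RPR2, against 14.9% of 3490. Where both cell types met the floor these were 7 of 9 in CRPR2, against 4.83% of 2214 genes, and 9 of 9 in RPR2, against 8.45% of 2141. These lists and the gate were drawn up with earlier results of these data known.

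The classical genes set the monocytes well apart from the macrophages. Plac8, a cysteine-rich protein gene of blood leukocytes, was at 1593 CPM in CRPR2 monocytes and 28.2 CPM in macrophages, and at 2909 CPM in RPR2 monocytes and 409 CPM in macrophages. F13a1, the A subunit of coagulation factor XIII, was at 324 CPM in CRPR2 monocytes with no UMI in macrophages, at least 49.7-fold higher, and at 369.7 CPM in RPR2 monocytes and 9.97 CPM in macrophages. Both genes are characteristic of monocytes in the blood.

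Macrophage genes lay low in the monocytes of both libraries. Of the macrophage list, 11 of 15 measured genes were lower in CRPR2 monocytes than in macrophages, against 8.37% of all measured genes, and 16 of 16 in RPR2, against 17.7%. Where both cell types met the floor, 7 of 10 were lower in CRPR2 monocytes and 7 of 7 in RPR2 monocytes. The share of all genes lower under that limit is not given here, so these counts only describe the list. Of 20 dissociation-stress genes, 13 were higher in CRPR2 monocytes than in macrophages and 15 in RPR2 monocytes. Over all measured genes 9.31% were higher in CRPR2 monocytes and 14.9% in RPR2 monocytes. The part of such stress in the other differences was not tested. Apoe, the lipid carrier that macrophages secrete, was at 1646 CPM in CRPR2 monocytes and 20765 CPM in macrophages, and at 342 CPM in RPR2 monocytes and 11513 CPM in macrophages. Ms4a7, a relative of Ms4a6c that appears as monocytes mature, was at 7.07 CPM in CRPR2 monocytes and 780.0 CPM in macrophages, and at 5.28 CPM in RPR2 monocytes and 1106 CPM in macrophages. The chemokine Pf4 had no monocyte UMI in either library, against 295 CPM in CRPR2 macrophages and 174 CPM in RPR2 macrophages. The elastase gene Mmp12 was at 32.5 CPM in CRPR2 monocytes and 1894 CPM in macrophages, and at 1.32 CPM in RPR2 monocytes and 1161 CPM in macrophages. Since C1q RNA decided which cells were called macrophages, this sets the gate's cells beside their neighbours and is no test of it.

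The neutrophil genes were nearly silent. Neutrophils here were picked by S100a8 UMIs above the limit set for monocytes and by the presence of S100a9, the partner of S100a8. Their S100a9 is thus high by choice, and its contrast with monocytes is no test of the gate. S100a9 had no monocyte UMI in either library, against 29417 CPM in the 82 CRPR2 neutrophils and 113894 CPM in the 25 RPR2 ones. Retnlg, a resistin-like gene of neutrophils, likewise had none, against 2820.1 CPM in CRPR2 neutrophils and 14793 CPM in RPR2 neutrophils. All measured genes of the neutrophil list were lower in monocytes, 7 of 7 in CRPR2, against 19.9% of 3555 genes, and 10 of 10 in RPR2, against 11.1% of 2530. Of these genes none met the floor in CRPR2 monocytes and 2 did in RPR2 monocytes, so nearly all were counted through the neutrophils. S100a9, by which the neutrophils were picked, is counted among these genes. Csf3r, the receptor for granulocyte colony-stimulating factor, was at 42.4 CPM in CRPR2 monocytes and 541 CPM in neutrophils, and at 71.3 CPM in RPR2 monocytes and 1067 CPM in neutrophils. Ifitm6 did not separate the cell types in RPR2, where it stood at 504 CPM in monocytes and 1338 CPM in neutrophils.

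Markers of some further cell types were low and those of others were not. The NK cell list summed to 1.41 CPM in CRPR2 monocytes and 0 in RPR2 monocytes. The endothelial list summed to 4.24 CPM in CRPR2 and 26.4 CPM in RPR2, with Cdh5 and Cldn5 at 0 in both. The conventional dendritic list summed to 383 CPM in CRPR2 monocytes and 284 CPM in RPR2 monocytes, with the integrin Itgae at 0. In T cells it summed to 325 CPM in CRPR2 and 545 CPM in RPR2. T cells can make some of its genes themselves, such as Ccr7, so their sum is no background of free dendritic RNA. The gate barred none of these genes, and whether it took some dendritic cells was not tested. The plasmacytoid dendritic list summed to 232 CPM in CRPR2 and 351 CPM in RPR2, with its marker Siglech at 0 in both. The alveolar macrophage list summed to 303 CPM in CRPR2 and 76.6 CPM in RPR2, most of it in the undecided cells described below. The T cell list summed to 9.90 CPM in CRPR2 and 186 CPM in RPR2. The highest sums were those of the tumour list, at 2311 CPM in CRPR2 monocytes and 908 CPM in RPR2 monocytes, and the club cell list, at 5143 CPM in CRPR2 and 3541 CPM in RPR2. In T cells, which make neither, the tumour list stood at 2455 CPM in CRPR2 and 1126 CPM in RPR2, and the club list at 12693 CPM in CRPR2 and 3093 CPM in RPR2.

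The edges of the gate were thinly filled for most genes. Of the 222 CRPR2 barcodes that met the Ms4a6c, Lyz2 and Tyrobp minimum, C1q was at 0 in 153, at 1 or 2 UMIs in 6 and at 3 or more in 63. Of the 166 such RPR2 barcodes, it was at 0 in 134, at 1 or 2 UMIs in 3 and at 3 or more in 29. Lyz2 stood at its minimum of 3 UMIs in 0 CRPR2 monocytes and 6 RPR2 monocytes, and its median was 97.5 UMIs in CRPR2 and 91 in RPR2. With 2 Lyz2 UMIs, 0 barcodes in CRPR2 and 2 in RPR2 just missed the gate. Ms4a6c was the edge with the most cells, since 39 CRPR2 monocytes and 18 RPR2 monocytes held exactly 1 UMI. With none, 117 CRPR2 and 32 RPR2 barcodes met all other conditions.

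Monocytes made up a like share of the kept barcodes of both libraries, 1.25% in CRPR2 (1.06 to 1.47) and 1.38% in RPR2 (1.15 to 1.64). T-lineage barcodes are far more common in RPR2, and without them monocytes were 1.33% of 11171 barcodes in CRPR2 and 2.72% of 4376 in RPR2. Monocytes were 58.1% of all monocytes and macrophages in CRPR2 and 77.8% in RPR2. A share of barcodes moves with every other cell type in the library, and fewer cells of a type in the tumour and fewer recovered from it cannot be told apart.

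The monocytes were divided into classes by the UMIs of 4 genes that mark the 2 known forms. A cell was called an Ace/Treml4 cell where Ace (chr11:105967945-105989964, plus strand) and Treml4 (chr17:48264295-48275360, plus strand) together had more UMIs than Ccr2 (chr9:124101950-124113557, plus strand) and Ly6c2 (chr15:75108158-75111970, minus strand), and a Ccr2/Ly6c2 cell where they had fewer. All 4 are protein-coding genes, and the coordinates are those of mm10. CRPR2 held 9 Ace/Treml4 cells, 115 Ccr2/Ly6c2 cells and 26 undecided cells, and RPR2 held 40, 75 and 11. Cells with UMIs of both pairs were 21 in CRPR2 and 17 in RPR2. Of the 26 CRPR2 monocytes with any Ace or Treml4 UMI, 80.8% also held one of Ccr2 or Ly6c2, as did 80.7% of all CRPR2 monocytes, so the pairs did not keep apart there. Of the 49 such RPR2 monocytes 34.7% did, against 65.9% of all RPR2 monocytes. UMIs of neither pair were found in 24 CRPR2 cells and 11 RPR2 cells.

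**Figure D1:**
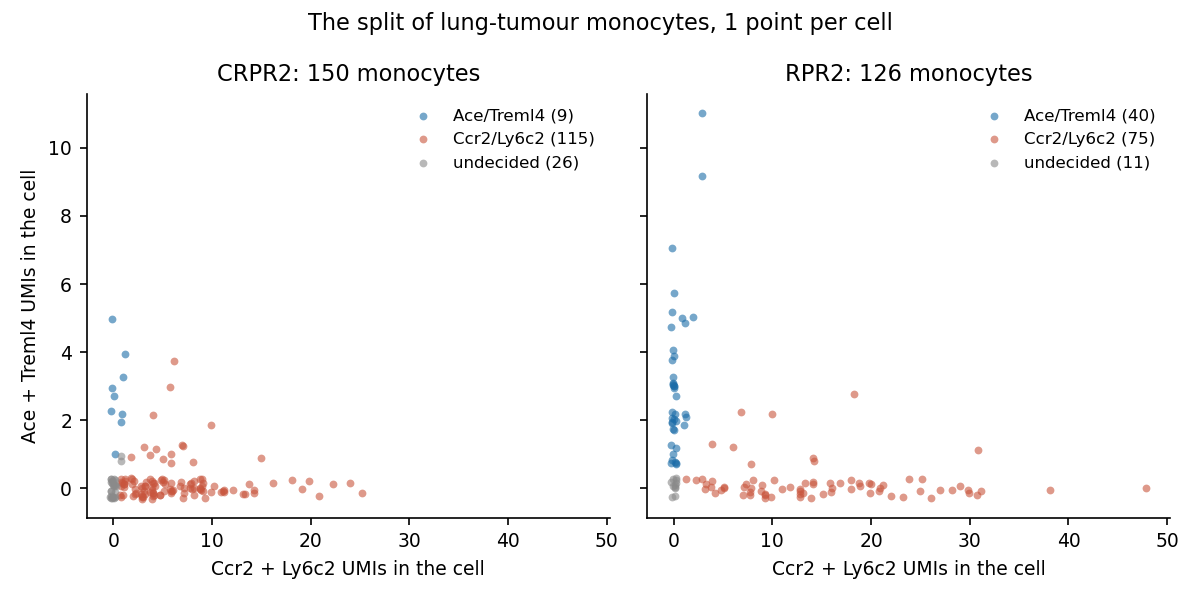
Each point is 1 monocyte, placed by its UMIs of Ace and Treml4 and its UMIs of Ccr2 and Ly6c2, for CRPR2 and RPR2 in turn. Most cells lie along one axis or the other, with 9 CRPR2 and 40 RPR2 cells on the Ace/Treml4 side.

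The share of Ace/Treml4 cells was lower in the CRPR2 library than in the RPR2 library. Ace/Treml4 cells were 6.0% of CRPR2 monocytes (2.78 to 11.1) and 31.7% of RPR2 monocytes (23.7 to 40.6), intervals that do not overlap. Ccr2/Ly6c2 cells were 76.7% in CRPR2 (69.1 to 83.2) and 59.5% in RPR2 (50.4 to 68.2), and undecided cells 17.3% in CRPR2 and 8.73% in RPR2. Among decided cells alone, Ace/Treml4 cells were 7.26% in CRPR2 and 34.8% in RPR2.

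At equal depth the gap was smaller and kept its direction. Median UMIs per monocyte were 4004.5 in CRPR2 and 5596 in RPR2. Thinned to 1000 UMIs, with 9 shallower CRPR2 cells and 3 RPR2 cells left out, Ace/Treml4 cells were 5.67% of 141 in CRPR2 and 21.95% of 123 in RPR2. The Ccr2/Ly6c2 share was then 51.8% in CRPR2 and 52.0% in RPR2, so no order of it between the libraries held at equal depth. In kept barcodes as a whole, Ace/Treml4 cells were 0.0752% in CRPR2 and 0.438% in RPR2, and Ccr2/Ly6c2 cells 0.961% in CRPR2 and 0.822% in RPR2. When any Ace or Treml4 UMI sufficed, the Ace/Treml4 share was 17.3% in CRPR2 and 38.9% in RPR2, and the gap was narrower. When the gate asked for 2 Ms4a6c UMIs it was 1.802% in CRPR2 and 26.9% in RPR2. The number of animals behind each library is not known, and the part of a single animal, of its blood content or of its sex in the difference was not tested.

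**Figure D2:**
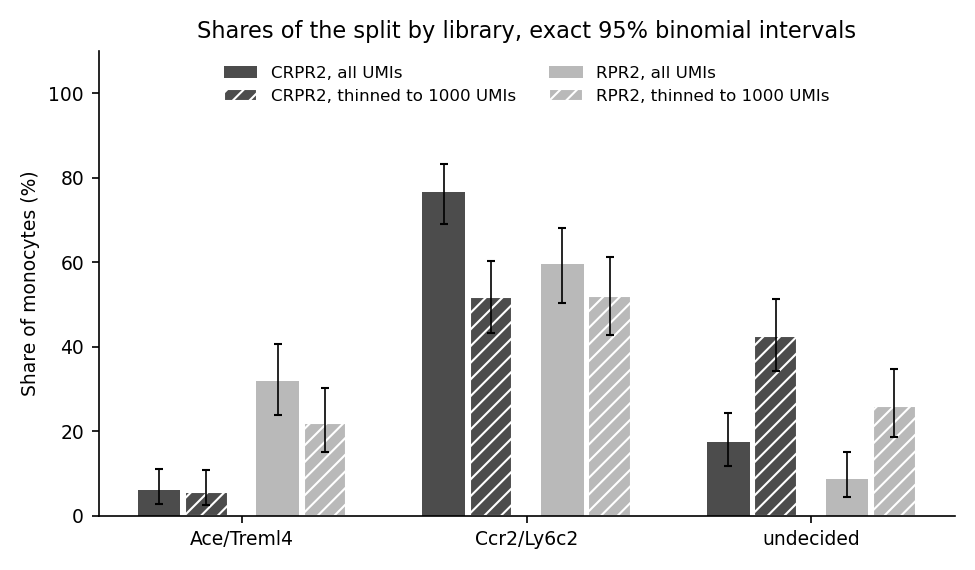
Bars give the percent of monocytes in each class, CRPR2 left of RPR2, with exact 95% binomial intervals that cover counting error only, with all UMIs and thinned to 1000 UMIs per cell. The Ace/Treml4 share is 6.0% in CRPR2 and 31.7% in RPR2, and after thinning 5.67% in CRPR2 and 21.95% in RPR2.

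Several genes known to mark the nonclassical form were higher in Ace/Treml4 cells of both tumours. Of 1704 genes measured in both libraries, 37 were higher and 141 lower in Ace/Treml4 cells of both, while 38 were called in opposite directions. All of this describes cells split by RNA of the same cells. The 9 CRPR2 cells with 37937 UMIs limit what is seen there, against 187558 UMIs in the 40 RPR2 cells. Single deep cells weigh in both sums. RPR2 cells with 32030 and 21239 UMIs stood against a median of 3122, and 1 CRPR2 cell held 9708, so CPM values lean on these cells. Of the 20 genes of the nonclassical list, 7 were measured in CRPR2, and 5 of them were higher and none lower in Ace/Treml4 cells, against 5.5% of all 1818 measured genes higher. In RPR2 all 20 were measured, and 17 were higher and none lower, against 20.8% of 3487 genes. Members such as Adgre4 met the floor only through the Ace/Treml4 cells, so these counts support nothing by themselves. Where both classes met the floor, 4 of 5 members were higher in CRPR2, against 16.4% of 560 genes, and 5 of 8 in RPR2, against 6.38% of 2149.

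Integrins and surface receptors were among the genes higher in Ace/Treml4 cells. Of the integrin and adhesion list, 4 of 12 measured genes were higher and 3 lower in CRPR2 Ace/Treml4 cells, and 9 of 15 higher and 3 lower in RPR2. Over all measured genes 5.5% were higher and 34.4% lower in CRPR2, and 20.8% higher and 9.09% lower in RPR2. Where both classes met the floor, 4 of 5 members were higher in CRPR2 and 5 of 9 in RPR2. The shares of all genes higher under that limit are those given above beside the nonclassical list. Among the lower ones in both were Selplg, which encodes an adhesion ligand, and the integrin chain Itgb7. In CRPR2 Ace/Treml4 cells Selplg and Itgb7 had 1 UMI each, with ratios of 0.186 (0.00465 to 1.07) for Selplg and 0.243 (0.00605 to 1.40) for Itgb7, and Itgb7 was not lower where the gate asked for 2 Ms4a6c UMIs. Adgre4, an adhesion receptor of the EGF-TM7 family, was at 290.0 CPM in Ace/Treml4 cells and 22.8 CPM in Ccr2/Ly6c2 cells of CRPR2, a ratio of 12.7 (5.17 to 30.8), and at 299 CPM in RPR2 Ace/Treml4 cells and 26.2 CPM in Ccr2/Ly6c2 cells, a ratio of 11.4 (6.27 to 22.2). Itgal, the alpha chain of LFA-1, was at 606 CPM in CRPR2 Ace/Treml4 cells and 109 CPM in Ccr2/Ly6c2 cells and 634 CPM in RPR2 Ace/Treml4 cells and 122 CPM in Ccr2/Ly6c2 cells, ratios of 5.58 (3.30 to 9.14) in CRPR2 and 5.22 (3.83 to 7.18) in RPR2. Its partner chain Itgb2 was at 501 CPM in CRPR2 Ace/Treml4 cells and 94.6 CPM in Ccr2/Ly6c2 cells and at 267 CPM in RPR2 Ace/Treml4 cells and 125 CPM in Ccr2/Ly6c2 cells, so both chains of the integrin that holds patrolling monocytes to the vessel wall were higher in both tumours, although the RPR2 log2 ratio of Itgb2, 1.08, was 0.69 after thinning. Spn, the sialomucin CD43 that is a surface marker of nonclassical monocytes, was at 319.9 CPM in RPR2 Ace/Treml4 cells and 35.5 CPM in Ccr2/Ly6c2 cells, a ratio of 9.0 (5.30 to 16.0), and had 8 UMIs in the CRPR2 Ace/Treml4 cells, too few to be measured.

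Receptors of cell migration were also higher in RPR2 Ace/Treml4 cells than in RPR2 Ccr2/Ly6c2 cells. Cx3cr1, the fractalkine receptor that keeps these cells alive and on the endothelium, was at 325 CPM in Ace/Treml4 cells and 110.3 CPM in Ccr2/Ly6c2 cells, a ratio of 2.95 (2.03 to 4.29). S1pr5, a sphingosine-phosphate receptor through which such monocytes leave the marrow, was at 101 CPM in RPR2 Ace/Treml4 cells and 11.2 CPM in Ccr2/Ly6c2 cells, and the formyl peptide receptor Fpr1 at 74.6 CPM in RPR2 Ace/Treml4 cells and 1.87 CPM in Ccr2/Ly6c2 cells. Of the chemokine receptor list, 4 of 6 measured genes were higher, against 20.8% of all measured genes, though 2 of the 6 met the floor in both classes and 1 of these was higher. Ccr1 was lower, at 0 UMIs in Ace/Treml4 cells and 44 in Ccr2/Ly6c2 cells. Csf1r, the receptor for the growth factor CSF1, was at 527 CPM in CRPR2 Ace/Treml4 cells and 221 CPM in Ccr2/Ly6c2 cells, and at 549 CPM in RPR2 Ace/Treml4 cells and 277 CPM in Ccr2/Ly6c2 cells, where its ratio of 1.98 (1.53 to 2.57) missed the 2-fold call. In CRPR2 its log2 ratio of 1.25 was -0.28 after thinning to 1000 UMIs, so its direction there is not settled.

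The Fc receptors for IgG split between the 2 classes in RPR2. Fcgr4, the activating receptor of nonclassical monocytes in mice, was at 171 CPM in RPR2 Ace/Treml4 cells and 9.35 CPM in Ccr2/Ly6c2 cells. Fcgr3, a second activating receptor, was at 64.0 CPM in RPR2 Ace/Treml4 cells and 307 CPM in Ccr2/Ly6c2 cells, a ratio of 0.209 (0.106 to 0.374), and at 52.7 CPM in CRPR2 Ace/Treml4 cells and 291 CPM in Ccr2/Ly6c2 cells. The inhibitory Fcgr2b was at 10.7 CPM in RPR2 Ace/Treml4 cells and 84.2 CPM in Ccr2/Ly6c2 cells. Cd274, which encodes the checkpoint ligand PD-L1, was at 74.6 CPM in RPR2 Ace/Treml4 cells and 7.48 CPM in Ccr2/Ly6c2 cells, a ratio of 9.98 (3.13 to 41.6), and its log2 ratio of 3.16 was 0.86 after thinning.

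Genes with other roles were also higher in Ace/Treml4 cells of both tumours. Bcl2a1b, an anti-apoptotic relative of BCL2 induced in activated leukocytes, was at 290.0 CPM in Ace/Treml4 cells and 29.8 CPM in Ccr2/Ly6c2 cells of CRPR2, a ratio of 9.74 (4.12 to 22.04), and at 299 CPM in RPR2 Ace/Treml4 cells and 16.8 CPM in Ccr2/Ly6c2 cells, a ratio of 17.7 (8.71 to 40.8). Its near-identical copies Bcl2a1a and Bcl2a1d, with which it may share reads, followed it in RPR2. Bcl2a1a was at 133 CPM in Ace/Treml4 cells and 5.61 CPM in Ccr2/Ly6c2 cells, and Bcl2a1d at 213 CPM in Ace/Treml4 cells and 9.35 CPM in Ccr2/Ly6c2 cells. Pou2f2, the transcription factor OCT2, was at 527 CPM in CRPR2 Ace/Treml4 cells and 112 CPM in Ccr2/Ly6c2 cells and 661 CPM in RPR2 Ace/Treml4 cells and 144 CPM in Ccr2/Ly6c2 cells, and the G protein subunit gene Gngt2 at 817 CPM in CRPR2 Ace/Treml4 cells and 172 CPM in Ccr2/Ly6c2 cells and 1509 CPM in RPR2 Ace/Treml4 cells and 393 CPM in Ccr2/Ly6c2 cells. Ear2, a ribonuclease of the eosinophil-associated family, was at 579.9 CPM in CRPR2 Ace/Treml4 cells and 50.8 CPM in Ccr2/Ly6c2 cells, a ratio of 11.4 (6.25 to 20.6), and at 501 CPM in RPR2 Ace/Treml4 cells and 28.1 CPM in Ccr2/Ly6c2 cells, a ratio of 17.9 (10.3 to 33.2). H2-K1, a heavy chain of the MHC class I molecules that present to CD8 T cells, was at 1476 CPM in CRPR2 Ace/Treml4 cells and 595 CPM in Ccr2/Ly6c2 cells and 1472 CPM in RPR2 Ace/Treml4 cells and 572 CPM in Ccr2/Ly6c2 cells, ratios of 2.48 (1.83 to 3.30) in CRPR2 and 2.57 (2.18 to 3.04) in RPR2. Both H2-K1 ratios were within 2-fold under TMM scaling. Stap1, a signalling adaptor, was at 316 CPM in CRPR2 Ace/Treml4 cells and 78.8 CPM in Ccr2/Ly6c2 cells and 352 CPM in RPR2 Ace/Treml4 cells and 71.1 CPM in Ccr2/Ly6c2 cells. Nr4a1, the factor on which nonclassical monocytes depend, stood at 606 CPM in CRPR2 Ace/Treml4 cells and 469 CPM in Ccr2/Ly6c2 cells and at 693 CPM in RPR2 Ace/Treml4 cells and 733 CPM in Ccr2/Ly6c2 cells, within 2-fold in both. It is also an immediate-early gene, and the dissociation-stress list had 3 of 20 measured genes lower and none higher in each library, Fos, Ier3 and Btg2 in CRPR2 and Fos, Ier3 and Atf3 in RPR2. Over all measured genes 34.4% were lower in CRPR2 and 9.09% in RPR2.

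The promoter of Bcl2a1b is shown because that gene was among the 12 most clearly higher in both libraries and its promoter holds the letters searched for below. PU.1 is the transcription factor that drives the myeloid programme, and GAGGAAGT, read on either strand (ACTTCCTC on the other), is a core of its binding motif. These 186 bases precede both the RefSeq start and the annotated gene body (chr9:89199023-89199208, plus strand, RefSeq sequence of GRCm38.p6, the gene itself at chr9:89199209-89207827). The motif is in capitals and its first base lies 148 bases before the RefSeq start.
Bcl2a1b promoter: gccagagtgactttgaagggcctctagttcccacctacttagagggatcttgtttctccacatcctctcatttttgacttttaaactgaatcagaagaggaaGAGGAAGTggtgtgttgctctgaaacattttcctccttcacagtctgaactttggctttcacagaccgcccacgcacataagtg
Promoters of 7 of the 12 genes most clearly higher were found in the RefSeq table, with 9 starts among them, and 2 of the 9 held the PU.1 letters within 250 bases before the start, Bcl2a1b and Spp1. All Spp1 UMIs of CRPR2 Ace/Treml4 cells, and all but 1 of those of RPR2, came from 1 cell in each library. Of the 12 most clearly lower genes 8 were found, also with 9 starts, and none held them, while 2.44% of all 32851 promoters of that length did. AAAGGTCA, the response element that NR4A1 binds as a monomer, was in none of these 18 promoters on either strand and in 1.34% of all.

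Eno3, Cd300e and Fabp4 were nearly absent from RPR2 Ccr2/Ly6c2 cells, and Ace/Treml4 cells held them. Eno3, the muscle form of the glycolytic enzyme enolase, was at 368 CPM in Ace/Treml4 cells (69 UMIs in 30 of 40 cells) and 1.87 CPM in Ccr2/Ly6c2 cells (1 UMI). In RPR2 T cells, 1.93% of cells held an Eno3 UMI at a median depth of 1850.5 UMIs, against 75.0% of Ace/Treml4 cells at 3122 UMIs. Since T cells were picked to hold no Lyz2 UMI, they may understate free RNA of myeloid cells. CRPR2 Ace/Treml4 cells held 5 Eno3 UMIs. Cd300e, an activating receptor of monocytes, had 22 UMIs in RPR2 Ace/Treml4 cells and none in Ccr2/Ly6c2 cells, at least 20.9-fold higher. Fabp4, a fatty acid carrier, was at 229 CPM in RPR2 Ace/Treml4 cells and 5.61 CPM in Ccr2/Ly6c2 cells, and had 7 UMIs in CRPR2 Ace/Treml4 cells and 0 in Ccr2/Ly6c2 cells.

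Classical monocyte genes were low in Ace/Treml4 cells. Of the classical list, 13 of 16 measured genes were lower and none higher in CRPR2, against 34.4% of all measured genes lower, and 11 of 15 lower and none higher in RPR2, against 9.09%. Where both classes met the floor, none of 3 was lower in CRPR2, so the CRPR2 count rests on genes that met it in Ccr2/Ly6c2 cells alone, and 7 of 11 were lower in RPR2, against 5.03% of 2149 genes. F13a1 had no UMI in the CRPR2 Ace/Treml4 cells and stood at 401 CPM in Ccr2/Ly6c2 cells, a ratio of at most 0.197, and was at 10.7 CPM in RPR2 Ace/Treml4 cells and 519.9 CPM in Ccr2/Ly6c2 cells, a ratio of 0.0205 (0.00247 to 0.0748). Chil3, the chitinase-like protein Ym1, had no UMI in CRPR2 Ace/Treml4 cells and 819.6 CPM in Ccr2/Ly6c2 cells, and was at 128 CPM in RPR2 Ace/Treml4 cells and 922 CPM in Ccr2/Ly6c2 cells. Fn1, the matrix protein fibronectin, was at 185 CPM in CRPR2 Ace/Treml4 cells and 1074 CPM in Ccr2/Ly6c2 cells and 64.0 CPM in RPR2 Ace/Treml4 cells and 696 CPM in Ccr2/Ly6c2 cells. Tgfbi, a secreted matrix protein gene of monocytes, was at 52.7 CPM in CRPR2 Ace/Treml4 cells and 373 CPM in Ccr2/Ly6c2 cells and 160.0 CPM in RPR2 Ace/Treml4 cells and 539 CPM in Ccr2/Ly6c2 cells. The mitochondrial membrane protein gene Tspo was at 132 CPM in CRPR2 Ace/Treml4 cells and 771 CPM in Ccr2/Ly6c2 cells and 299 CPM in RPR2 Ace/Treml4 cells and 1086 CPM in Ccr2/Ly6c2 cells, and the calcium-binding S100a11 at 237 CPM in CRPR2 Ace/Treml4 cells and 1264 CPM in Ccr2/Ly6c2 cells and 427 CPM in RPR2 Ace/Treml4 cells and 1216 CPM in Ccr2/Ly6c2 cells. Plac8 stayed within 2-fold in both, at 2003 CPM in CRPR2 Ace/Treml4 cells and 1818 CPM in Ccr2/Ly6c2 cells and 1999 CPM in RPR2 Ace/Treml4 cells and 3402 CPM in Ccr2/Ly6c2 cells.

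Most measured chemokine genes were lower in Ace/Treml4 cells. Of 7 measured chemokine genes, 6 were lower in CRPR2 Ace/Treml4 cells, against 34.4% of all measured genes, and 7 in RPR2, against 9.09%. Where both classes met the floor, 1 of 2 was lower in CRPR2 and 5 of 5 in RPR2. The RPR2 share of all genes lower under that limit is given above beside the classical list, and the CRPR2 share is not given. Ccl3, a ligand of CCR1, had no UMI in the CRPR2 Ace/Treml4 cells, against 378 CPM in Ccr2/Ly6c2 cells, and was at 176 CPM in RPR2 Ace/Treml4 cells and 587 CPM in Ccr2/Ly6c2 cells. Osm, the cytokine oncostatin M, had no UMI in CRPR2 Ace/Treml4 cells against 331 CPM in Ccr2/Ly6c2 cells, and stood at 21.3 CPM in RPR2 Ace/Treml4 cells and 441 CPM in Ccr2/Ly6c2 cells. Cxcl2, a neutrophil attractant, was at 527 CPM in CRPR2 Ace/Treml4 cells and 235 CPM in Ccr2/Ly6c2 cells, where all 20 UMIs of the Ace/Treml4 cells came from 1 cell, and at 192 CPM in RPR2 Ace/Treml4 cells and 1373 CPM in Ccr2/Ly6c2 cells. Il1b, which encodes interleukin 1 beta, stayed within 2-fold, at 896 CPM in CRPR2 Ace/Treml4 cells and 1566 CPM in Ccr2/Ly6c2 cells, and at 1034 CPM in RPR2 Ace/Treml4 cells and 1709 CPM in Ccr2/Ly6c2 cells. Ltb, the gene of lymphotoxin beta, was at 213 CPM in RPR2 Ace/Treml4 cells and 140.3 CPM in Ccr2/Ly6c2 cells. The matricellular gene Thbs1 was at 79.1 CPM in CRPR2 Ace/Treml4 cells and 709 CPM in Ccr2/Ly6c2 cells and 117 CPM in RPR2 Ace/Treml4 cells and 443 CPM in Ccr2/Ly6c2 cells. Wfdc17, a secreted protease inhibitor of myeloid cells, was at 26.4 CPM in CRPR2 Ace/Treml4 cells and 748 CPM in Ccr2/Ly6c2 cells and 37.3 CPM in RPR2 Ace/Treml4 cells and 703 CPM in Ccr2/Ly6c2 cells.

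**Figure D3:**
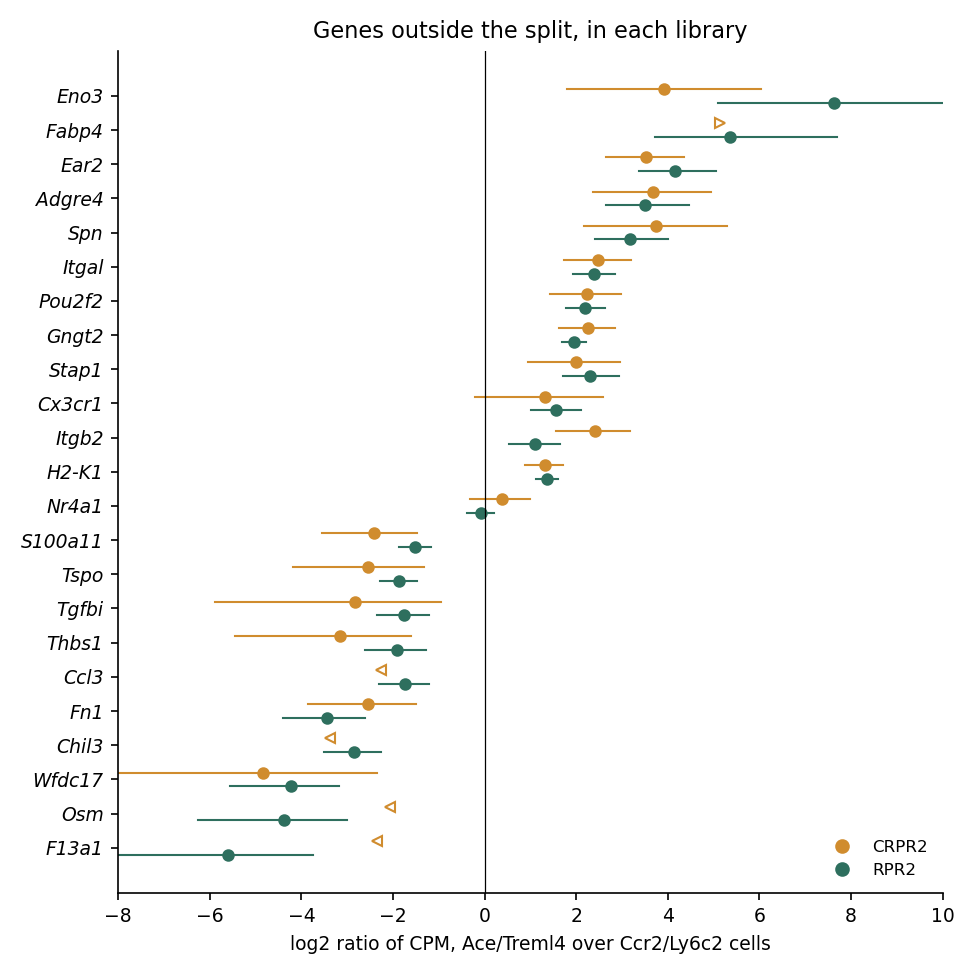
Points give the ratio of CPM in Ace/Treml4 cells over Ccr2/Ly6c2 cells on a log axis for 23 genes in CRPR2 and RPR2, with bars for exact 95% intervals and open arrows where 1 group held no UMI and 3 were put in its place. Adgre4, Ear2 and Itgal lie to the right of 1 in both libraries, and F13a1, Wfdc17 and Fn1 to the left.

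RNA of other cells was unequal between the classes. The club cell list summed to 870.0 CPM in CRPR2 Ace/Treml4 cells and 6275 CPM in CRPR2 Ccr2/Ly6c2 cells, and to 14076 CPM in RPR2 Ace/Treml4 cells and 56.1 CPM in RPR2 Ccr2/Ly6c2 cells. In RPR2 2011 of 2070 UMIs of the club secretory gene Scgb1a1 sat in a single Ace/Treml4 cell. Over cells low in such RNA, 6 Ace/Treml4 and 95 Ccr2/Ly6c2 cells in CRPR2 and 32 Ace/Treml4 and 69 Ccr2/Ly6c2 cells in RPR2, the nonclassical list had 3 of 6 measured genes higher in CRPR2, against 3.56% of genes, and 16 of 18 in RPR2, against 15.7%. Spp1, the secreted phosphoprotein osteopontin, rested on single cells, since 46 of its 46 UMIs in CRPR2 Ace/Treml4 cells and 81 of 82 in RPR2 came from 1 cell each. Scaling by TMM factors in place of CPM lowers every log2 ratio of this comparison by 0.70 in CRPR2 and 0.38 in RPR2.

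The undecided cells differed from Ccr2/Ly6c2 cells in more than the 4 genes of the split. In both libraries some of them carried genes of resident lung macrophages, although C1q was absent by choice. In RPR2 the undecided cells with 12733 and 10436 UMIs held most of the group's 35006 UMIs, so its CPM values lean on these. The alveolar macrophage list summed to 1626 CPM in CRPR2 undecided cells and 94.6 CPM in Ccr2/Ly6c2 cells, and to 1400 CPM in RPR2 undecided cells and 0 CPM in RPR2 Ccr2/Ly6c2 cells. A UMI of the list was found in 18 of 26 undecided cells of CRPR2 and 4 of 11 of RPR2. The name monocyte is therefore less certain for these cells. Ctsk, the cysteine protease cathepsin K, was at 1880.4 CPM in undecided cells and 5.25 CPM in Ccr2/Ly6c2 cells of CRPR2, and at 628 CPM in RPR2 undecided cells with no UMI in RPR2 Ccr2/Ly6c2 cells. Atp6v0d2, a subunit of the proton pump of lysosomes, had 65 UMIs in CRPR2 undecided cells and 10 in RPR2 ones, and none in the Ccr2/Ly6c2 cells of either.

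Acp5 was higher in the undecided cells of both libraries, while Lpl rested almost wholly on 1 cell in RPR2. Acp5, the tartrate-resistant acid phosphatase, was at 539 CPM in CRPR2 undecided cells and 12.3 CPM in Ccr2/Ly6c2 cells, a ratio of 43.9 (19.9 to 115), and at 714 CPM in RPR2 undecided cells and 20.6 CPM in Ccr2/Ly6c2 cells. Lpl, lipoprotein lipase, was at 630.2 CPM in CRPR2 undecided cells and 15.8 CPM in Ccr2/Ly6c2 cells, spread over 16 of 26 cells, while in RPR2 49 of its 50 UMIs came from 1 cell. Ear1, a ribonuclease gene of alveolar macrophages, was at 81.3 CPM in CRPR2 undecided cells and 628 CPM in RPR2 undecided cells, with no UMI in Ccr2/Ly6c2 cells. Plet1, a surface protein gene of alveolar macrophages in mice, was at 539 CPM in CRPR2 undecided cells and 33.3 CPM in Ccr2/Ly6c2 cells, and at 229 CPM in RPR2 undecided cells with no UMI in RPR2 Ccr2/Ly6c2 cells. Of the phagocytosis and lysosome list, 8 of 19 measured genes were higher in CRPR2 undecided cells, against 12.6% of 2558 genes, and 1 of 16 in RPR2, against 4.76% of 1829. The RPR2 count lay near the share of all genes.

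Classical monocyte genes were low in the same cells, while nonclassical ones were not low in RPR2. Of the classical list, 14 of 16 measured genes were lower and 1 higher in CRPR2 undecided cells, against 20.8% of all genes lower, and 12 of 15 lower and 1 higher in RPR2, against 38.5%. Where both classes met the floor, 6 of 8 were lower in CRPR2 and 1 of 4 in RPR2, with the share of all genes under that limit not given here. Of the nonclassical list, 3 of 10 were higher and 5 lower in CRPR2 undecided cells, and 3 of 6 higher and none lower in RPR2. Over all measured genes 12.6% were higher and 20.8% lower in CRPR2 undecided cells, and 4.76% higher and 38.5% lower in RPR2 ones. At 1000 UMIs, Gngt2 was found in 77.8% of 9 RPR2 undecided cells and 70.0% of 40 RPR2 Ace/Treml4 cells, and Ear2 in 44.4% of the undecided cells and 35.0% of the Ace/Treml4 cells. Plbd1 was at 81.3 CPM in CRPR2 undecided cells and 469 CPM in Ccr2/Ly6c2 cells, and at 571 CPM in RPR2 undecided cells and 438 CPM in Ccr2/Ly6c2 cells. F13a1 had no UMI in the undecided cells of either library, against 401 CPM in CRPR2 Ccr2/Ly6c2 cells and 519.9 CPM in RPR2 ones. Plac8 was at 132 CPM in CRPR2 undecided cells and 1818 CPM in Ccr2/Ly6c2 cells and 257 CPM in RPR2 undecided cells and 3402 CPM in Ccr2/Ly6c2 cells. Chil3, which alveolar macrophages also make, was at 4523 CPM in CRPR2 undecided cells and 819.6 CPM in Ccr2/Ly6c2 cells. The dissociation-stress list had 17 of 20 measured genes lower in CRPR2 undecided cells and 18 of 20 in RPR2 undecided cells. Undecided cells were shallower, with medians of 3150 UMIs against 4168 in CRPR2 Ccr2/Ly6c2 cells and 1398 against 6792 in RPR2 Ccr2/Ly6c2 cells, and the part of depth in leaving them undecided was not tested.

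**Figure D4:**
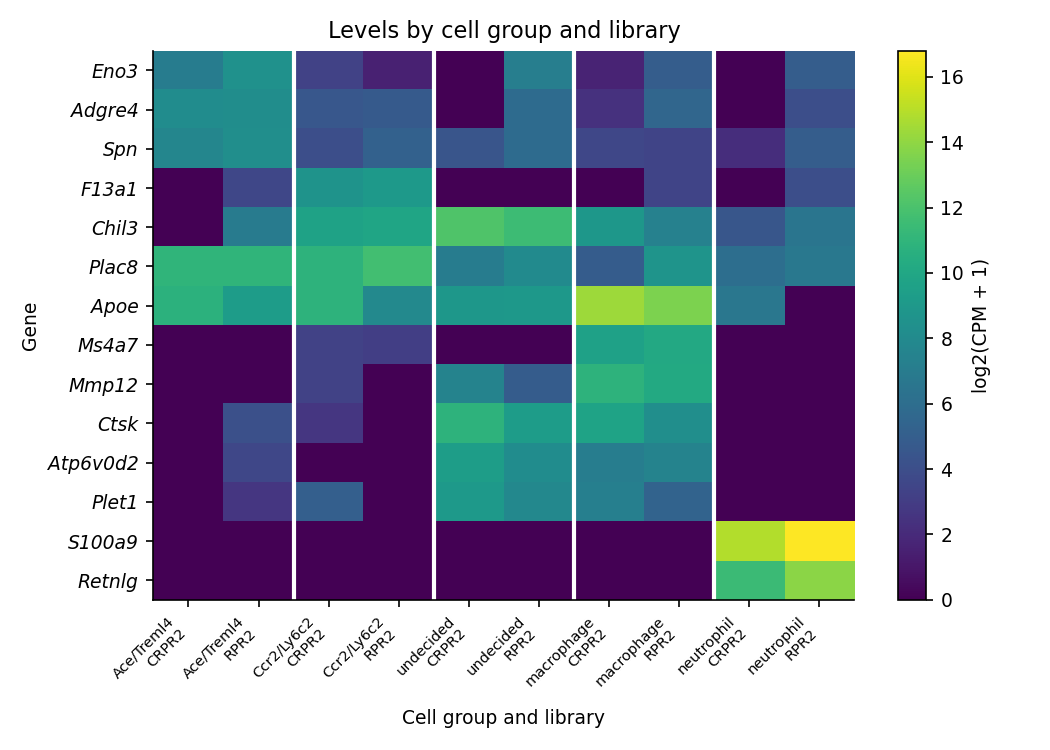
Colour gives log2 of CPM plus 1 for 14 genes in 10 groups, the Ace/Treml4 cells, Ccr2/Ly6c2 cells, undecided cells, macrophages and neutrophils of CRPR2 and RPR2. F13a1 is brightest in Ccr2/Ly6c2 cells and absent from undecided cells, while Ctsk is brightest in undecided cells.

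Comparing the 2 tumours over all monocytes mixes these classes in different shares. Among all monocytes, 98 of 3048 measured genes were higher and 90 lower in CRPR2 than in RPR2, 3.22% higher and 2.95% lower. None of 16 measured nonclassical genes was higher and 7 were lower, while among Ccr2/Ly6c2 cells alone none of 9 was called either way. Some genes higher in CRPR2 as a whole sat largely in undecided cells, which held 68 of 73 CRPR2 UMIs of Gpnmb, a macrophage glycoprotein gene, 185 of 188 of Ctsk and 53 of 72 of Plet1. The tumours were therefore compared within Ccr2/Ly6c2 cells, where 161 of 2967 measured genes were higher in CRPR2 and 80 lower, 5.43% higher and 2.7% lower.

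Genes of antigen presentation on MHC class II stood higher in CRPR2. Of 8 measured genes of the MHC class II list, 4 were higher and none lower in CRPR2 Ccr2/Ly6c2 cells, and 5 of 8 were higher over cells low in other-cell RNA, against 2.84% of 2746 genes. Where both libraries met the floor, 3 of 7 were higher, against 1.28% of 2257 genes, and 4 of 7 over cells low in other-cell RNA, against 0.654% of 2140. MHC class II molecules present peptides to CD4 T cells and are gained by monocytes as they mature in tissue. H2-Ab1, a beta chain, was at 1329 CPM in CRPR2 and 393 CPM in RPR2, a ratio of 3.38 (2.90 to 3.96). Its alpha partner H2-Aa was at 1119 CPM in CRPR2 and 297 CPM in RPR2, a ratio of 3.76 (3.16 to 4.51). The invariant chain Cd74, which escorts class II molecules, was at 3870.2 CPM in CRPR2 and 1439.9 CPM in RPR2, a ratio of 2.69 (2.48 to 2.92). Cd74 UMIs were found in 77 of 115 CRPR2 cells and 30 of 75 RPR2 cells, and in 47.8% of CRPR2 and 21.6% of RPR2 cells thinned to 1000 UMIs. Of T cells thinned alike, 4.94% in CRPR2 and 2.25% in RPR2 held one.

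H2-Eb1 stood apart from its partners. This beta chain gene (chr17:34305867-34316674, plus strand, mm10) was at 637 CPM in CRPR2 Ccr2/Ly6c2 cells and 9.35 CPM in RPR2 ones, a ratio of 68.2 (28.9 to 211). In macrophages, where 4.58% of all measured genes were higher in CRPR2, it was at 2339.8 CPM in CRPR2 and 29.9 CPM in RPR2, although H2-Aa there was at 2874 CPM in CRPR2 and 2029 CPM in RPR2 and Cd74 at 10948 CPM in CRPR2 and 9305 CPM in RPR2. In Ace/Treml4 cells H2-Eb1 was at 579.9 CPM in CRPR2 and 5.33 CPM in RPR2. The near-absence of H2-Eb1 from RPR2 was thus shared by all 3 myeloid groups, whereas the higher H2-Aa, H2-Ab1 and Cd74 of CRPR2 were called in monocytes and not in macrophages, a difference between the cell types that was not tested. The H-2 locus that holds these genes varies between inbred mouse strains, and the strain of these mice is not known here.

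Single genes with other roles were also higher in CRPR2. Apoe was at 1841 CPM in CRPR2 Ccr2/Ly6c2 cells and 234 CPM in RPR2 ones, a ratio of 7.87 (6.54 to 9.56), and its ratio was 10.6 over cells low in other-cell RNA. Apoe UMIs were found in 76 of 115 CRPR2 cells and 18 of 75 RPR2 cells, and at 1000 UMIs in 49.6% of CRPR2 and 14.9% of RPR2 cells. Of T cells at that depth, 0.899% in CRPR2 and 1.25% in RPR2 held one. The inhibitory Fcgr2b was at 226 CPM in CRPR2 and 84.2 CPM in RPR2, a ratio of 2.68 (1.90 to 3.86), and the transcription factor Runx1 at 187 CPM in CRPR2 and 80.4 CPM in RPR2, a ratio of 2.33 (1.62 to 3.40). Vcan, the matrix proteoglycan versican and a marker of classical monocytes, was at 119 CPM in CRPR2 and 15.0 CPM in RPR2, a ratio of 7.96 (3.82 to 19.2). Clec10a, a lectin of dendritic cells and tissue macrophages, was at 82.3 CPM in CRPR2 and 29.9 CPM in RPR2, a ratio of 2.75 (1.53 to 5.20).

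The chemokine genes Cxcl2 and Ccl2 were lower in CRPR2, as were some single genes of inflammation. Cxcl2 was at 235 CPM in CRPR2 and 1373 CPM in RPR2, a ratio of 0.171 (0.141 to 0.206), with up to 161 UMIs in 1 RPR2 cell. Its UMIs were found in 24 of 115 CRPR2 cells and 30 of 75 RPR2 cells, and at 1000 UMIs in 9.57% of CRPR2 and 32.4% of RPR2 cells. Of T cells at that depth, 0.449% in CRPR2 and 0.242% in RPR2 held one. Ccl2, the ligand of CCR2, was at 99.8 CPM in CRPR2 and 234 CPM in RPR2, a ratio of 0.427 (0.307 to 0.589). The acute-phase protein gene Saa3 was at 8.76 CPM in CRPR2 and 301 CPM in RPR2, and Clec4e, the receptor Mincle for fungal and bacterial glycolipids, at 105 CPM in CRPR2 and 256 CPM in RPR2. Nfkbia, the NF-kappaB inhibitor that the pathway itself induces, was at 479.8 CPM in CRPR2 and 1036 CPM in RPR2, a ratio of 0.463 (0.399 to 0.536). Other inflammatory genes stayed closer, since Il1b stood at 1566 CPM in CRPR2 and 1709 CPM in RPR2 and Ccl4 at 552 CPM in CRPR2 and 798 CPM in RPR2, both within 2-fold. Of the inflammatory list as a whole none of 9 measured genes was called, and of the chemokine list 2 of 7 were lower, Ccl2 and Cxcl2. Over all measured genes 5.43% were higher and 2.7% lower.

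The genes most clearly lower in CRPR2 had diverse roles. Prtn3, a granule protease made by progenitors, was at 19.3 CPM in CRPR2 and 123 CPM in RPR2, a ratio of 0.156 (0.0743 to 0.298). Hebp1, which encodes a heme-binding protein, was at 10.5 CPM in CRPR2 and 157 CPM in RPR2, a ratio of 0.0669 (0.0239 to 0.152). Ltb, which encodes lymphotoxin beta, a cell-surface cytokine of the TNF family, was at 15.8 CPM in CRPR2 and 140.3 CPM in RPR2, a ratio of 0.112 (0.0495 to 0.225). Slpi, an inhibitor of neutrophil elastase, was at 129.6 CPM in CRPR2 and 683 CPM in RPR2, a ratio of 0.190 (0.146 to 0.244), and Chil1, a chitinase-like glycoprotein gene, at 35.0 CPM in CRPR2 and 149.6 CPM in RPR2. The oxidase subunit Ncf4 was at 217 CPM in CRPR2 and 462 CPM in RPR2, and the type I interferon receptor chain Ifnar1 at 31.5 CPM in CRPR2 and 74.8 CPM in RPR2. Of 13 measured interferon-response genes 1 was lower and none higher, against 2.7% of all measured genes lower and 5.43% higher. The lower one was Ifi44, at 47.3 CPM in CRPR2 and 95.4 CPM in RPR2. Over cells low in other-cell RNA Ifi44 was within 2-fold, as was Ncf4.

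Most identity genes of classical monocytes stayed within 2-fold between the tumours. Of 17 measured classical genes 2 were higher, Vcan and Lyz1, and 2 lower, Clec4e and Prtn3. Over all 2967 measured genes 5.43% were higher and 2.7% lower, so the called classical genes were not fewer than that share. Lyz1 may share reads with its near-identical neighbour Lyz2. Chil3 was at 819.6 CPM in CRPR2 Ccr2/Ly6c2 cells and 922 CPM in RPR2 ones, Fn1 at 1074 CPM in CRPR2 and 696 CPM in RPR2, Plbd1 at 469 CPM in CRPR2 and 438 CPM in RPR2 and Ifitm6 at 478 CPM in CRPR2 and 568 CPM in RPR2, all within 2-fold. Klf2, a transcription factor of resting blood cells, was at 811 CPM in CRPR2 and 1419 CPM in RPR2. None of 16 measured actin-regulator genes was called in either direction, nor any of 20 dissociation-stress genes or 13 metabolism genes. With so few of all measured genes called, lists of this size can hold no call whatever the genes.

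**Figure D5:**
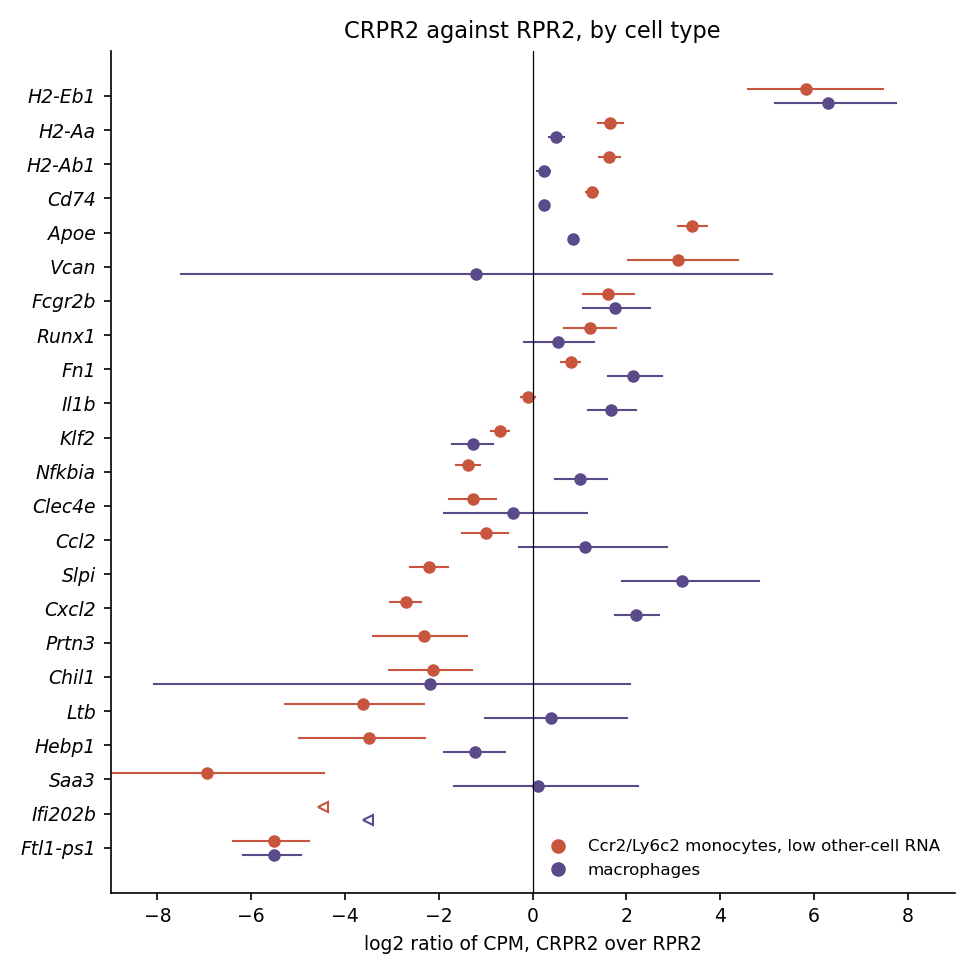
Points give the ratio of CPM in CRPR2 over RPR2 on a log axis for 23 genes, for Ccr2/Ly6c2 monocytes low in other-cell RNA and for macrophages, with exact 95% intervals and open arrows where 1 group held no UMI and 3 were put in its place. H2-Eb1 lies far to the right of 1 in both cell types, while Cxcl2 and Slpi lie left of 1 in monocytes and right of 1 in macrophages.

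The number of genes called higher varied with RNA from other cells. Scgb1a1 was at 5902 CPM in CRPR2 Ccr2/Ly6c2 cells and 52.4 CPM in RPR2 ones, and at 11791 CPM in CRPR2 and 2809.8 CPM in RPR2 in T cells. The tumour list summed to 2247 CPM in CRPR2 Ccr2/Ly6c2 cells and 533 CPM in RPR2 ones. Of its measured members 6 of 6 were higher in CRPR2, against 5.43% of all 2967 measured genes. Over cells low in such RNA the genes called higher were 78 and those called lower 99 of 2746, 2.84% higher and 3.61% lower, in place of 161 higher and 80 lower. Without barcodes called as doublets 73 were higher. Over cells low in other-cell RNA the ratio was 57.0 for H2-Eb1, 3.14 for H2-Aa, 2.39 for Cd74, 3.03 for Fcgr2b, 0.153 for Cxcl2 and 0.217 for Slpi. Some further calls were single cells, such as Rgs5 in CRPR2, all of whose 49 UMIs were in 1 cell, and Lyz1, with 26 of 32.

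Between the Ace/Treml4 cells of the 2 tumours the class II genes again stood higher in CRPR2, 4 of 5 measured and 3 of 4 where both libraries met the floor. With 9 CRPR2 and 40 RPR2 cells, 79 of 2263 measured genes were higher and 843 lower in CRPR2, 3.49% higher and 37.3% lower. Cd74 was at 5087 CPM in CRPR2 and 1189 CPM in RPR2, a ratio of 4.28 (3.51 to 5.21), and H2-Aa at 1344 CPM in CRPR2 and 133 CPM in RPR2, a ratio of 10.1 (6.13 to 16.99). Itgal at 606 CPM in CRPR2 and 634 CPM in RPR2, Adgre4 at 290.0 CPM in CRPR2 and 299 CPM in RPR2 and Ear2 at 579.9 CPM in CRPR2 and 501 CPM in RPR2 were within 2-fold. The median log2 ratio over all measured genes was -0.54, so lower calls in these 9 cells are common whatever the gene.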

How the data were processed

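Single-cell RNA of 2 lung tumour libraries, CRPR2 and RPR2, was analysed from the UMI counts per gene and barcode that the authors deposited as filtered matrices of 32285 features. Cell Ranger 6.1.2 made them, per the file headers, and Scanpy 1.8.2 and build mm10 are listed in the submitters' processing notes. Barcodes under 300 genes or over 15% mitochondrial UMIs were dropped, and the gate, split and comparison groups were applied to raw counts. Counts were summed per library and class and scaled to CPM over all genes. Ratios have exact conditional binomial intervals and shares exact Clopper-Pearson intervals, all at 95%. List medians use log2 of CPM plus 1. With 1 library per group no difference was tested, and edgeR 4.0.16 (R 4.3.3) gave only TMM factors for an alternative scaling. The call rule and its intervals were checked on simulated counts. Doublets were kept, and a run without those that Scrublet called (Scanpy 1.11.5) was an alternative: its automatic limit marked 0 CRPR2 barcodes, so a fixed rate was used there, which took 31 of 150 CRPR2 and 9 of 126 RPR2 monocytes. Named genes are list members and, for each comparison, the 12 on either side whose interval bound nearest 1 was farthest from it, mitochondrial and ribosomal protein genes left out. Rgs5 was added after its values were seen. Gene lists and members were chosen with earlier results of these data known. Coordinates are those of GENCODE vM21, matched by gene ID for all 516 genes with values. Python 3.11.15, scipy 1.17.1 and pandas 2.3.3 were used. Alternatives were other gate limits, filters, scalings and depths, and limits on other-cell RNA. A gene counted within some lists is not reported here by itself.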

Additional observations from a re-analysis of the deposited data

Results flagged for a closer look

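In each pair below the effect of the same contrast ran in opposite directions in 2 groups. None of these differences was tested, since there is 1 library per tumour. The club cell genes were lower in Ace/Treml4 than in Ccr2/Ly6c2 cells of CRPR2 and higher in those of RPR2. For Scgb1a1 the ratio was 0.143 in CRPR2 and 211 in RPR2, where 2011 of 2070 UMIs of the Ace/Treml4 cells were in 1 cell. For Scgb3a2 it was 0.1 in CRPR2 and 371 in RPR2, with 240 of 260 UMIs in 1 cell. Other genes ran oppositely in monocytes and macrophages between the tumours. Cxcl2 had a CRPR2 over RPR2 ratio of 0.171 in Ccr2/Ly6c2 monocytes and 4.63 in macrophages. Slpi had ratios of 0.19 in monocytes and 9.07 in macrophages, and Nfkbia 0.463 in monocytes and 2.01 in macrophages. The fibroblast gene Dcn had ratios of 2.75 in monocytes and 0.453 in macrophages, and was not measured in monocytes low in other-cell RNA, where Cxcl2, Slpi and Nfkbia were lower as before, at 0.153 for Cxcl2, 0.217 for Slpi and 0.386 for Nfkbia.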

How the results depend on the processing

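No paired analysis was possible because each group is 1 library and the labels give no replicate numbers. Of 80 recomputed shares and counts 63 were close to the values given above. The Ace/Treml4 share of CRPR2 monocytes was 1.802% with at least 2 Ms4a6c UMIs and 17.3% with any Ace or Treml4 UMI, and that of RPR2 was 26.9% with at least 2 Ms4a6c UMIs, 38.9% with any Ace or Treml4 UMI and 21.95% after thinning to 1000 UMIs, always lower in CRPR2 under the same setting. Monocytes were 0.928% of CRPR2 barcodes with at least 2 Ms4a6c UMIs, and 2.72% of RPR2 barcodes without T-lineage barcodes. Over all monocytes 98 genes were higher and 90 lower in CRPR2. They were 429 higher and 221 lower at 20 CPM and 5 UMIs, 40 higher and 37 lower at 100 CPM and 20 UMIs, 393 higher and 245 lower with both classes weighted equally, and 217 higher and 248 lower after thinning, while Ccr2/Ly6c2 cells alone gave 161 higher. Those 161 were 73 without doublets, 78 in cells low in other-cell RNA and 71 where such RNA was under 1%, limits added after seeing the data, and the lower count stayed between 79 and 106. In CRPR2 Ace/Treml4 over Ccr2/Ly6c2 cells the log2 ratio of Csf1r was -0.28 after thinning, and that of Cxcl2 was -7.66 without doublets, -7.94 with at least 2 Ms4a6c UMIs, -7.87 in cells low in other-cell RNA and -1.45 after thinning. Itgb7 there was 0.63 with at least 2 Ms4a6c UMIs. Spp1 there was -5.71 without doublets and -6.52 with at least 2 Ms4a6c UMIs. Scgb1a1 was 1.33 and Scgb3a2 0.12 where other-cell RNA was under 1%, and Scgb1a1 was 1.37 and Scgb3a2 0.061 in cells with under 100 Scgb1a1 UMIs. The cause was not tested. TMM scaling lowers log2 ratios by 0.11 between the Ccr2/Ly6c2 cells of the libraries. The 37937 UMIs of the 9 CRPR2 Ace/Treml4 cells limit every value of theirs.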
